A study of Rattus norvegicus with 15 samples.

Results

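Collateral arteries of the Wistar Kyoto rat (WKY), an inbred strain with normal blood pressure, were compared with control arteries of the same strain. The members were chosen by their labels, with earlier results of these data known. They were 4 arrays labelled WKY collateral and 3 labelled WKY control, 7 of the 15 arrays of the series. The other 8 arrays hold the same vessel types from the spontaneously hypertensive rat (SHR), and the series asks what underlies its impaired collateral growth. All samples were mesenteric arteries, which supply the gut, and the collaterals were made by occluding adjacent arteries, so that the open artery carried the diverted flow. The labels give no age, sex, time after occlusion or number of vessels per sample, and they do not tie arrays to separate animals, so every p-value here rests on the spread between samples that may share an animal.

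Collateral growth is the outward enlargement of an existing artery that is made to carry more blood. Raised shear stress is sensed by the endothelium, which signals through nitric oxide and other mediators, and the smooth muscle and matrix of the wall are then rebuilt around a wider lumen. Proteases of the urokinase and metalloproteinase systems, growth factors, recruited monocytes and dividing wall cells are the components usually described in this process.

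The artery label was checked on smooth muscle markers. The 5 tested of 6 listed (Acta2, Myh11, Tagln, Cnn1 and Des) were above the 20th percentile on all 7 arrays and summed to signals of 177937 to 279736 on collateral arrays and 170037 to 269706 on control arrays. Signal is the authors' scaled brightness of a probe set, the group of probes that reports 1 transcript, in arbitrary units. The collateral arrays correlated with each other at Spearman coefficients of 0.845 to 0.905 over the tested probe sets, the control arrays at 0.856 to 0.871, and arrays of different groups at 0.836 to 0.919, so the arrays did not separate by vessel type. As a sign of RNA quality, the log2 ratio of 3' over 5' signal for actin and Gapdh was 2.10 to 2.62 on collateral and 2.07 to 2.38 on control arrays. Collaterals 2, 3 and 4, at 2.44, 2.62 and 2.49, were above every control, and collateral 1 was at 2.10. The part of this ratio in the changes was not tested. Mean spike-in signal was 27183 to 130880 on collateral and 46308 to 110999 on control arrays.

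No probe set passed the test. With limma, fitted over all 15 arrays in 4 groups, 0 of 6512 tested probe sets (0%) had an adjusted p under 0.05 for collateral against control arteries, the smallest being 0.99988. At an unadjusted p under 0.05 there were 206 (3.16%), with 114 higher in collaterals (1.75%) and 92 lower (1.41%). All 4 collateral signals lay above all 3 control signals for 235 probe sets (3.61%) and below them for 201 (3.09%). The median standard error of a log2 change was 0.54 and the median change over all probe sets was 0.00. One array of the other strain, SHR collateral 3, stood apart from the other 14 and enters this fit through the shared estimate of spread. With the 7 WKY arrays alone 407 probe sets (6.25%) had an unadjusted p under 0.05 and the smallest adjusted p was 0.134. Without SHR collateral 3 there were 321 (4.93%, smallest adjusted p 0.333), and with array weights 461 (7.08%, smallest adjusted p 0.0629). The signals and log2 changes that follow are therefore descriptions of these 7 arrays. Each log2 change is given with its standard error from the fit over all 15 arrays, for 4 collateral against 3 control arrays. That error rests on the shared estimate of spread, SHR collateral 3 included. It is not the spread of the 7 WKY arrays alone, and can be wider or narrower than it.

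**Figure D1:**
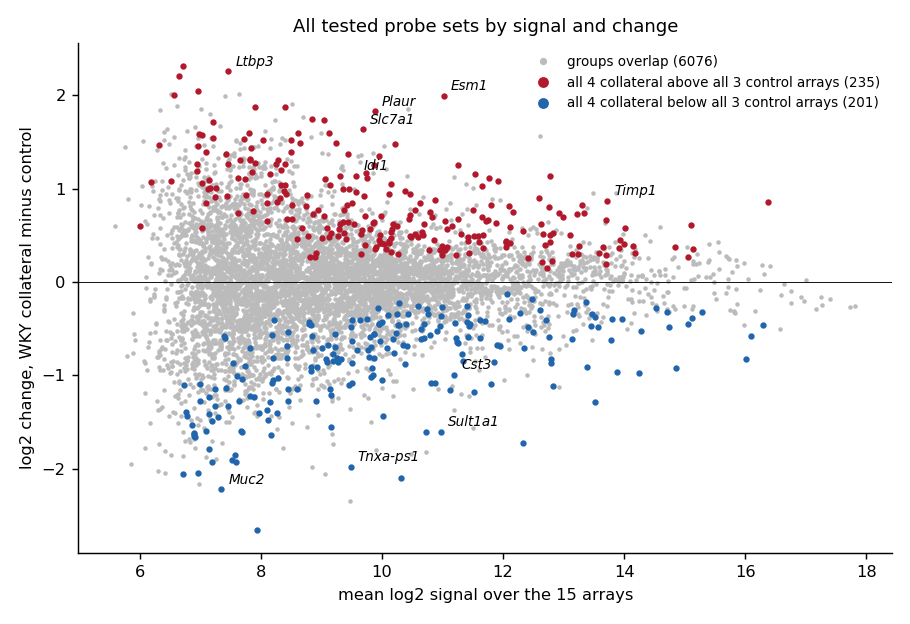
Log2 change of each of the 6512 tested probe sets, WKY collateral minus control (vertical axis), against its mean log2 signal over 15 arrays (horizontal axis). Red points are the 235 probe sets whose 4 collateral signals all lay above the 3 control signals, blue points the 201 that all lay below, and grey points overlapped; the spread of changes is wider at low signal.

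Esm1 (probe set rc_AI233219_at), a proteoglycan secreted by activated endothelium, had signals of 7820.3, 3859, 3324 and 8275 on collateral arrays 1 to 4 and 2364, 1029 and 1003 on control arrays 1 to 3. Every collateral array was above every control array, and collateral arrays 1 and 4 were above collateral arrays 2 and 3. Its log2 change was 1.995 ± 0.42, 3.99-fold, with the smallest unadjusted p of the named genes (0.000168). Other endothelial genes did not stand apart in the same way: of 14 endothelial markers tested 7 were above 0 and 7 below, with a median of 0.01 (49.9% of all 3825 genes tested were above 0). In a bulk sample more or fewer cells of a type and more or less RNA per cell cannot be told apart. Pecam1, the endothelial adhesion molecule CD31, stood at 0.43 ± 0.44 (-0.031 without WKY control 3), the VEGF receptor Kdr at -0.24 ± 0.47 and Vwf, von Willebrand factor, at 0.28 ± 0.68.

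Plaur (X71898_at), the receptor that holds urokinase at the cell surface, read 1502, 1499, 784 and 1647 in collaterals and 427, 244 and 478 in controls. Collateral 3 was the lowest of the collaterals and still above the highest control, and the log2 change was 1.83 ± 0.43. The ligand did not share this size of difference: urokinase, Plau, stood at 0.21 ± 0.32, the tissue activator Plat at 0.23 ± 0.32 and thrombomodulin, Thbd, at 0.05 ± 0.37. F2r, the thrombin receptor PAR1, had 23516, 10938, 11645 and 22040.0 against 9999, 10474 and 7402, a change of 0.80 ± 0.37. Its groups did not overlap, though collaterals 2 and 3 were close to the highest control. Tissue factor, F3, was lower in value at -0.76 ± 0.31. Of 13 urokinase and clotting genes tested, 10 were above 0 and 3 below, with a median of 0.23 beside 0.00 for all probe sets. Of the 13, 2 were higher and 1 lower at an unadjusted p under 0.05, against 1.99% and 1.36% of all genes. Without WKY control 2 the list median was 0.06.

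Timp1 (rc_AI169327_g_at), which inhibits metalloproteinases, gave 17926, 14719, 12999 and 22345 in collaterals and 10170.2, 8855 and 8374 in controls. All collaterals were above all controls, and the change of 0.87 ± 0.26 stood beside 0.67 on its other probe set. Among the 13 metalloproteinases and inhibitors tested, Timp1 was the only member with an unadjusted p under 0.05 (1.99% of all genes were higher at that level). Of the 13, 9 were below 0, with a median of -0.13.

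Col12a1 (U57362_at), a collagen that sits on the surface of collagen fibrils, had signals of 1954, 2207, 1383 and 2574 against 748, 754 and 644. The controls lay within a narrow band and the lowest collateral was well above it, a change of 1.47 ± 0.45. Lox, which cross-links collagen and elastin, read 57712, 61509, 63027 and 81550.5 against 37423, 44965 and 46849 with a change of 0.61 ± 0.38, and all 4 of its probe sets were above 0. Fibronectin, Fn1, also had no overlap on its brightest probe set (0.39 ± 0.33), but its other probe sets stood at -0.99 and -0.49. The growth factor Tgfb3 (U03491_g_at) had 10407, 20455, 18705 and 13355 in collaterals and 5692, 7237 and 8057 in controls. No arrays overlapped, the change was 1.13 ± 0.47, and the other probe set gave 1.08. Ltbp3, which binds latent TGF-beta, showed a large ratio at low signal, 240.2, 269, 362 and 261 against 69, 31.8 and 91.3 (2.26 ± 0.80), with 1 array below its own 20th percentile of signal. The 22 genes of the TGF-beta family as a whole were balanced, 11 above 0 and 11 below.

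Of the 27 contractile genes tested, 20 were above 0 and 7 below, with a median of 0.24. Of these, 5 were higher and 2 lower without overlap (3.82% and 3.48% of all genes). Acta1 (J00692_at), skeletal alpha-actin, gave 3089, 4131, 3559.8 and 4079 against 1264, 1501 and 1946, without overlap (1.26 ± 0.43). Flnc, an actin cross-linker of muscle, read 2891, 7843, 3917 and 3674 against 1434, 2422 and 2626. Collateral 2 was far above the rest and collateral 1 close to the highest control, with a change of 1.02 ± 0.36 and 1.25 on the other probe set. Enteric gamma-actin, Actg2, had 82811, 169227, 140954 and 118073 in collaterals and 51967, 75612 and 81381 in controls (0.85 ± 0.52). Calponin, Cnn1, also had no overlap at 0.58 ± 0.39. Smooth muscle actin, Acta2, did overlap, with 55963, 95314, 114003 and 99227 against 56295, 96587 and 104702 and a change of 0.09 ± 0.39, and it stood at -0.04 without WKY collateral 3 and at -0.19 without WKY control 1. The other 2 probe sets of Acta2 stood at 0.35 and 0.37, both higher without overlap, so its probe sets differ. Smooth muscle myosin, Myh11, stood at -0.26 ± 0.59. Phospholamban, Pln, which restrains the calcium pump of the sarcoplasmic reticulum, was lower without overlap, 665, 505, 293 and 411 against 1169, 800.3 and 1360.2 (-1.27 ± 0.63). The array medians of the contractile list overlapped between groups, and its median was 0.14 without WKY control 1. Of 4 skeletal muscle markers on the array, Acta1 was higher and the other 3 were lower in value.

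**Figure D2:**
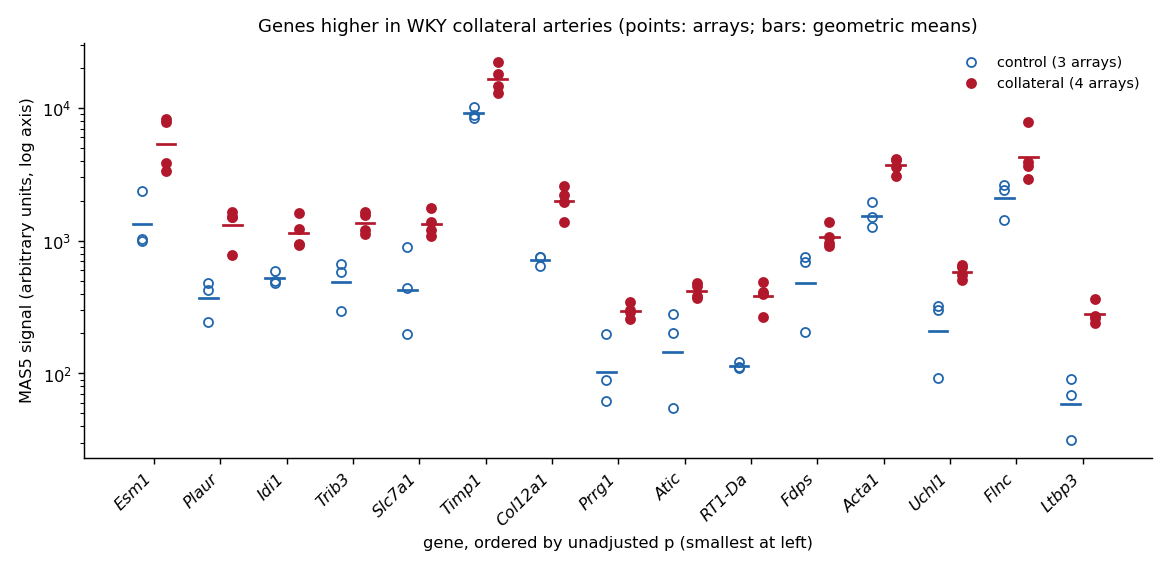
Signals of the 15 genes with the smallest unadjusted p among those higher in WKY collaterals without overlap, on a log axis, with 1 point per array (open blue, 3 controls; filled red, 4 collaterals) and bars at geometric means. Esm1, Plaur, Col12a1 and RT1-Da show a clear gap between groups, while Flnc and Fdps have collateral arrays close to the highest control.

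The largest shift of any list in the upward direction was in cholesterol synthesis, the chain of enzymes that turns acetyl-CoA through mevalonate and farnesyl pyrophosphate into cholesterol. Of 14 enzymes tested 12 were above 0 and 8 were higher without overlap (3.82% of all genes were), with 0 lower without overlap. The list median was 0.62 beside 0.00 for all probe sets, and 5 members had an unadjusted p under 0.05 (1.99% of genes). Its median on single arrays overlapped between groups, at 9.17 to 9.84 in collaterals and 9.05 to 9.52 in controls on the log2 scale, and the list median ranged from 0.51 to 0.75 when arrays were left out. This list was known from earlier results of these data to be shifted, so its counts are a description.

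Mvd, which makes isopentenyl pyrophosphate, read 655, 606, 908 and 624 in collaterals and 126, 483 and 194 in controls. Control 2 was much closer to the collaterals than the other controls were, and the change was 1.60 ± 0.62. Idi1 (AF003835_at), the next enzyme, had 939.7, 1629, 922 and 1223 against 594, 478 and 499. The groups were apart, and the change was 1.14 ± 0.32. Fdps, which makes farnesyl pyrophosphate, had 954, 1071, 1385 and 915 against 697, 206 and 753. Control 2 alone was low, and the change of 1.16 ± 0.39 was 0.56 without it. Its other probe sets gave 0.84 and 1.44.

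Sqle, squalene epoxidase, read 1652, 1631, 1529.6 and 2351 against 1032, 1054 and 714 (0.94 ± 0.43). Cyp51 (U17697_s_at), the lanosterol demethylase, had 4302, 4561, 4862 and 5146 against 2424, 2510.3 and 1538, with the collaterals in a narrow band above all controls (1.16 ± 0.50). Its other 4 probe sets were smaller in size, from 0.06 to 0.59. Msmo1 (0.77 ± 0.45), Nsdhl (0.46 ± 0.45) and Hsd17b7 (0.91 ± 0.89), which follow in the pathway, also had no overlap. On their brightest probe sets the groups overlapped for the other 6 enzymes. Acat2, which joins acetyl-CoA units at the start of the chain, stood at 0.12 ± 0.36, while its other probe set was higher without overlap at 1.12. The others included Fdft1, squalene synthase, at -0.75 ± 0.51, Lss at -0.18 ± 0.40 and Dhcr7 at 0.03 ± 0.42, whose sign turned when arrays were weighted or left out. Other probe sets of Fdft1 stood at -0.41 and 1.02, so its probe sets disagree. The genes of sterol uptake and of its control were not part of the shift: 2 of 6 tested were above 0, with a median of -0.09.

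**Figure D3:**
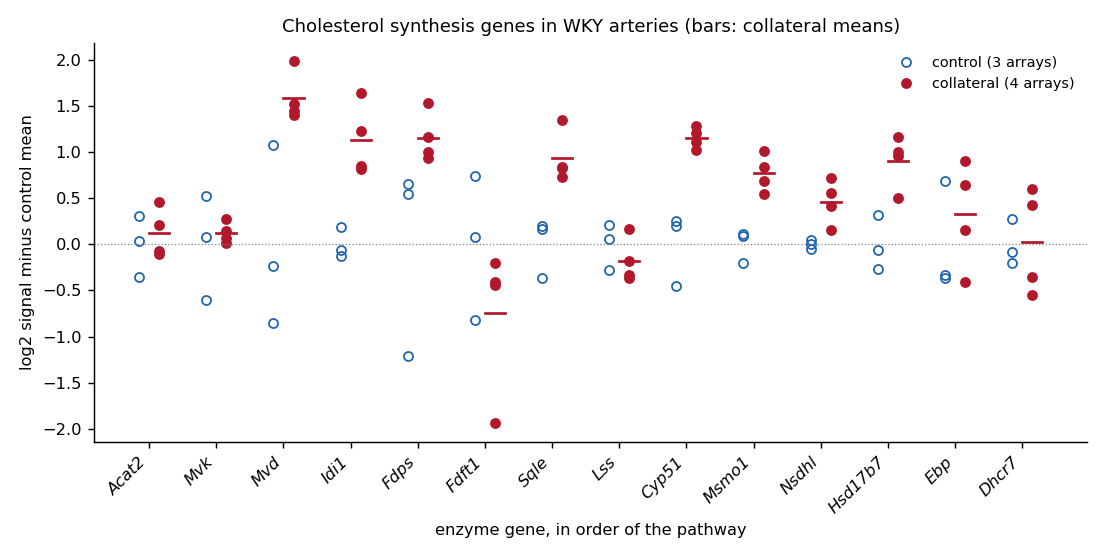
Log2 signal minus the control mean (vertical axis) for 14 cholesterol synthesis genes in pathway order (horizontal axis), with 1 point per array and bars at collateral means. For Mvd, Idi1, Fdps, Sqle, Cyp51, Msmo1, Nsdhl and Hsd17b7 all 4 red collateral points lie above all 3 blue control points, and Fdft1 has 1 collateral array far below the rest.

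Promoters are shown for 3 of these enzymes because they were higher together. Each is the stretch from 250 bases before to 50 bases after the RefSeq start of the gene, on the gene's strand, in the rat build GRCr8, with CCAAT on either strand in capitals (ATTGG is CCAAT on the other strand). Idi1 lies at chr17:66547475-66547774, Fdps at chr2:176804767-176805066 and Mvd at chr19:67414925-67415224, all on the minus strand.
Idi1: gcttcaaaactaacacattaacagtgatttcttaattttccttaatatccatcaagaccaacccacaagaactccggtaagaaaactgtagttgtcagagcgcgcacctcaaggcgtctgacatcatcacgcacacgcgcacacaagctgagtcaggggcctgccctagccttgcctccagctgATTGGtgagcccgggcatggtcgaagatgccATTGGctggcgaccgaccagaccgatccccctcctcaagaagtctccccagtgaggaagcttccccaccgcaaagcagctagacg
Fdps: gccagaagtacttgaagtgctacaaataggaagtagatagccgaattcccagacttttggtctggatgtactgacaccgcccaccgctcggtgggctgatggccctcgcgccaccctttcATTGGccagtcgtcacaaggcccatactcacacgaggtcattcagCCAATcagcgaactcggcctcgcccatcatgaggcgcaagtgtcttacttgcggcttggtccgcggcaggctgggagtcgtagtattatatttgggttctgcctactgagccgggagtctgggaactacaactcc
Mvd: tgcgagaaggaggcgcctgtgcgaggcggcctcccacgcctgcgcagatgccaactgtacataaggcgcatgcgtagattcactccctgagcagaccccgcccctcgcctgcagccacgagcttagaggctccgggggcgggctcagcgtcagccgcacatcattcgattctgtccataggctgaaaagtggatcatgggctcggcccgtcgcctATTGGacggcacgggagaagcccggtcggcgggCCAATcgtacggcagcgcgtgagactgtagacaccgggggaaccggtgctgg
Each held 2 copies. CCAAT, bound by the factor NF-Y in many sterol gene promoters, was present in 9 of the 12 promoters found for the tested list (75.0%) against 37.5% of 33469 rat promoters of this length, and at least 2 copies were present in 8 of 12 (66.7%) against 11.2%. The sterol regulatory element in the form TCACNCCAC, searched on both strands, was in 0 of the 12 and in 1.12% of all promoters. With so low a share over all promoters, 0 of 12 does not set the list apart from them. Other forms of the element were not searched. These letters are a description of sequence, not of binding.

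Arginine and amino acid supply gave another pair of leading genes. Slc7a1 (rc_AA957917_s_at), the CAT-1 transporter that brings arginine, the substrate of nitric oxide synthase, into cells, read 1081, 1752, 1385 and 1197 in collaterals and 441, 893 and 199 in controls. The groups did not overlap and the change was 1.64 ± 0.46. A second probe set gave 1.37, but the third stood at -1.04 with the groups apart in the opposite direction at low signal, so the probe sets disagree. Trib3 (rc_H31287_g_at), a pseudokinase induced when amino acids are short, had 1651, 1574, 1194 and 1128 against 297, 584 and 667 without overlap (1.49 ± 0.42). Its brighter probe set stood at 0.27 with the groups overlapping, 1798, 1483, 3469 and 1101 against 355, 3392 and 2709. Asparagine synthetase, Asns, gave 643, 499, 248 and 503 against 264, 575 and 44.7. Control 2 was above all collaterals but collateral 1, and the change of 1.24 ± 0.64 was 0.20 without WKY control 3. Psat1, of serine synthesis, also overlapped (1.21 ± 0.63), stood at 0.34 without WKY control 3, and had other probe sets at 0.31 and 0.41. Slc3a1, a cystine and dibasic amino acid transporter, was lower in value, 421, 157, 104 and 271 against 356, 518 and 780.3, with collateral 1 above control 1 (-1.34 ± 0.62, unadjusted p = 0.045). Slc3a2, the heavy chain of several amino acid transporters, and Odc1, which makes polyamines, were higher without overlap at 0.43 ± 0.27 and 0.54 ± 0.37. Over the 24 genes of amino acid transport and synthesis tested 16 were above 0 and 8 below, 1 was higher and 1 lower at an unadjusted p under 0.05 (1.99% and 1.36% of genes), and the median was 0.24, which was 0.15 without WKY control 1.

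The promoters of Slc7a1 (chr12:11664238-11664537, plus strand) and Trib3 (chr3:161275484-161275783, minus strand) are shown because both held TGATGNAAN, the form of the composite C/EBP-ATF site of amino acid response, here in capitals on either strand.
Slc7a1: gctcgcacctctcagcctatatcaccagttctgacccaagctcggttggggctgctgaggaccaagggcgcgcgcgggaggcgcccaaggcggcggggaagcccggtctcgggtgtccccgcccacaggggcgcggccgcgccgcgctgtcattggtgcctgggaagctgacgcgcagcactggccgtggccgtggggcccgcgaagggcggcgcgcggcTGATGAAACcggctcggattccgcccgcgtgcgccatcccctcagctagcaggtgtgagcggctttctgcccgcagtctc
Trib3: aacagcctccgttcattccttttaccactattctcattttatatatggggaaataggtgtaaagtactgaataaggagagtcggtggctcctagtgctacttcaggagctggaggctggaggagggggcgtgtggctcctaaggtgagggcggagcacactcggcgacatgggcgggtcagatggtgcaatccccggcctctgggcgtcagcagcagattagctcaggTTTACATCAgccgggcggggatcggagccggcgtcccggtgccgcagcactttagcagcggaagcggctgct
The site started 30 bases before the start in Slc7a1 and spanned 22 to 14 bases before it in Trib3. It was in 2 of 14 promoters found for the 15 leading higher genes (14.3%) and in 3.97% of all promoters. Plaur (chr1:89181113-89181412, plus strand) is shown for the AP-1 form TGANTCA, in capitals, which lay 83 to 77 bases before the start.
Plaur: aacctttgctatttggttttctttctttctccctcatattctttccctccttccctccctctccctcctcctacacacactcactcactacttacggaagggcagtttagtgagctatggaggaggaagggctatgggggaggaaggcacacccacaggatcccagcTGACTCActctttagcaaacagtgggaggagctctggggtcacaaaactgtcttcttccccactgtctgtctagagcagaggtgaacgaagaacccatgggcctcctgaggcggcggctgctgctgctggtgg
That form was in 2 of the same 14 promoters (14.3%), in 2 of 13 promoters found for 12 of the leading lower genes (15.4%) and in 7.33% of all promoters.

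Within the nitric oxide pathway the genes pointed in different directions. Ddah1, which degrades the inhibitor ADMA, read 2742, 2538, 2398 and 2325 against 1279, 1726 and 1218, with all collaterals well above all controls (0.84 ± 0.30), though its other probe set stood at -0.05. Gucy1a1, a subunit of the nitric oxide receptor guanylyl cyclase, was lower without overlap, 2869.8, 1792, 2897 and 2504 against 7104, 6856 and 3607. Control 3 was much nearer to the collaterals than the other controls, and the change was -1.18 ± 0.45. Endothelial nitric oxide synthase, Nos3, overlapped, with 363, 599.5, 546 and 584 against 509, 821 and 935 (-0.51 ± 0.60), and its other 4 probe sets lay between -0.20 and 0.34. Of 23 genes of the pathway tested 14 were above 0 and 9 below, with a median of 0.04.

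The 33 cell cycle genes tested had 22 above 0 and 11 below, with a median of 0.38, and their median level on each array was 9.29 to 9.54 in collaterals and 9.04 to 9.28 in controls, without overlap. Leaving out WKY control 3 gave a median of 0.17 and leaving out WKY collateral 1 gave 0.24. Mcm6, of the replicative helicase, had 5349, 4526, 4737 and 5530.4 against 3766, 3205 and 1952 (0.81 ± 0.34), and its other probe sets gave 1.61 and 0.62. Prim1, a primase subunit, read 946, 742, 733 and 775 against 448, 526 and 563 (0.64 ± 0.33). These were 2 of the 3 members without overlap, all higher (3.82% of all genes were). Cyclin D1, Ccnd1, overlapped at 0.86 ± 0.44, and its other probe sets, which also overlapped, stood at 0.35, 0.15, 0.13 and 1.04. The mitotic kinase Cdk1 stood at 1.46 ± 0.87, with collateral 3 far below the other collaterals.

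Pkm, the muscle-type pyruvate kinase, read 7175, 6563, 7310.3 and 9936 against 3775, 5772 and 4423 (0.74 ± 0.31), and Slc2a1, the glucose transporter GLUT1, 1625, 2188, 1719 and 2324 against 950.4, 1425 and 1080.1 (0.77 ± 0.33, and 1.21 on its other probe set). Neither gene's groups overlapped. Ldhb, the heart-type lactate dehydrogenase, went the other way without overlap, 2397, 1793, 2119 and 1677 against 3669, 3347 and 3163 (-0.78 ± 0.26). As a list, glycolysis and hypoxia genes were balanced, 13 above 0 and 13 below of 26. Vegfa, the main hypoxia-induced growth factor, stood at -0.18 ± 0.47 and turned to 0.018 with array weights. Its other probe set was above 0, so its probe sets disagree. Genes of oxidative phosphorylation were below 0 in 33 of 41 (50.1% of all genes were below 0), but the median was small at -0.13 and 0 of the 41 had an unadjusted p under 0.05. Of the 41, 4 were lower and 0 higher without overlap (3.48% and 3.82% of all genes).

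The monocyte chemokine Ccl2 gave 37307, 22967, 19069.6 and 27195 in collaterals and 23417, 10021 and 10163 in controls. Control 1 was above collaterals 2 and 3, so the groups overlapped, and the change was 0.95 ± 0.46. Il1b overlapped as well, with 1979, 1351, 947 and 2180.4 against 967, 634 and 349.8 (1.36 ± 0.68). Lif, a cytokine of the interleukin 6 family, was higher without overlap, 467, 314, 770.0 and 496 against 185, 226 and 181 (1.31 ± 0.66). Of 28 chemokine and cytokine genes tested 20 were above 0, with a median of 0.25. Only Lif had no overlap, a share near that of all genes, of which 3.82% were higher without overlap. The macrophage gene Lyz2 read 4659, 4507, 2224 and 16164 against 3578, 1420.2 and 1103, with collateral 4 far above the rest (1.56 ± 0.69). Of 6 macrophage markers listed 4 were on the array and 3 were tested, 2 higher and 1 lower, and their summed signal was 2427 to 16732 on collateral and 1492 to 4279 on control arrays. Haemoglobin beta, Hbb, was 20149.7 on collateral 1 and between 1139 and 4084 on the other 6 arrays. The part of these cells in the results was not tested. RT1-Da, a class II histocompatibility gene, had 412, 395, 489 and 268 against 110.3, 112 and 122, without overlap (1.74 ± 0.57). Its brighter probe set stood at 1.86 but overlapped, with collateral 3 at 415 and control 1 at 666. Icam1 and Vcam1, endothelial adhesion molecules, stood at -0.62 ± 0.45 and -0.76 ± 0.67, and at -0.27 and -0.13 without WKY collateral 4.

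Of the 15 leading lower genes, 4 belonged to detoxification. Of 37 genes of glutathione and drug metabolism tested, 29 were below 0 and 8 above, 6 were lower at an unadjusted p under 0.05 (1.36% of genes) and 5 were lower without overlap (3.48% of genes), with 0 higher by either count. The median change was -0.30, and the median level on each array was 9.08 to 9.25 in collaterals and 9.46 to 9.77 in controls, without overlap. Cell cycle was the only other list of the 41 with array medians apart. Without WKY control 3 the list median was -0.17.

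Sult1a1 (L19998_g_at), a phenol sulfotransferase, read 1380.5, 1534, 1119 and 541 in collaterals and 3618, 2791 and 3347 in controls. The highest collateral was well below the lowest control, a change of -1.60 ± 0.47, and the other probe set gave -2.10. Gstt2, a theta class glutathione transferase, had 2935, 1257, 1066 and 1588 against 4448, 4300.2 and 5903. Collateral 1 was the nearest to the controls, the change was -1.61 ± 0.50, and the other probe set gave -0.53. Ephx1, microsomal epoxide hydrolase, had 442, 284, 119 and 409.8 against 1210.0, 759 and 605 (-1.56 ± 0.49).

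Cyp2j3, a cytochrome P450 that makes vasodilator epoxides from arachidonic acid, read 72, 151, 127 and 318 against 549, 498 and 336. Collateral 4 came close to control 3, and while this probe set gave -1.64 ± 0.56 the other stood at -0.04. The alpha class transferase Gsta1 overlapped between groups, 615, 187, 316 and 271 against 1803, 575 and 1115 (-1.74 ± 0.51). Probes for this family can bind near-identical members, and all 3 probe sets were below 0. Aldh2, mitochondrial aldehyde dehydrogenase, had 2746, 1815, 2251 and 2231 against 4014, 3312 and 3273, without overlap (-0.65 ± 0.31).

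Fat markers were lower in value beside these genes. Adipocyte genes were below 0 in 14 of 16 tested, with a median of -0.58, 0 of 16 had an unadjusted p under 0.05 and 0 had no overlap. Of the 5 defining markers 4 were on the array, and their summed signal was 1835 to 14502 on collateral and 5034 to 33315 on control arrays. Fabp4, the fatty acid carrier of adipocytes, read 3717, 2385, 672 and 174 against 8571, 4255 and 727, highest on control 1 and lowest on collateral 4 (-1.56 ± 1.14). Lpl, lipoprotein lipase, stood at -1.13 ± 0.99 and Cfd, adipsin, at -0.94 ± 0.84, while the lipid droplet protein Plin1 was below its array's 20th percentile on all 7 arrays. The part of fat in the detoxification values was not tested.

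**Figure D4:**
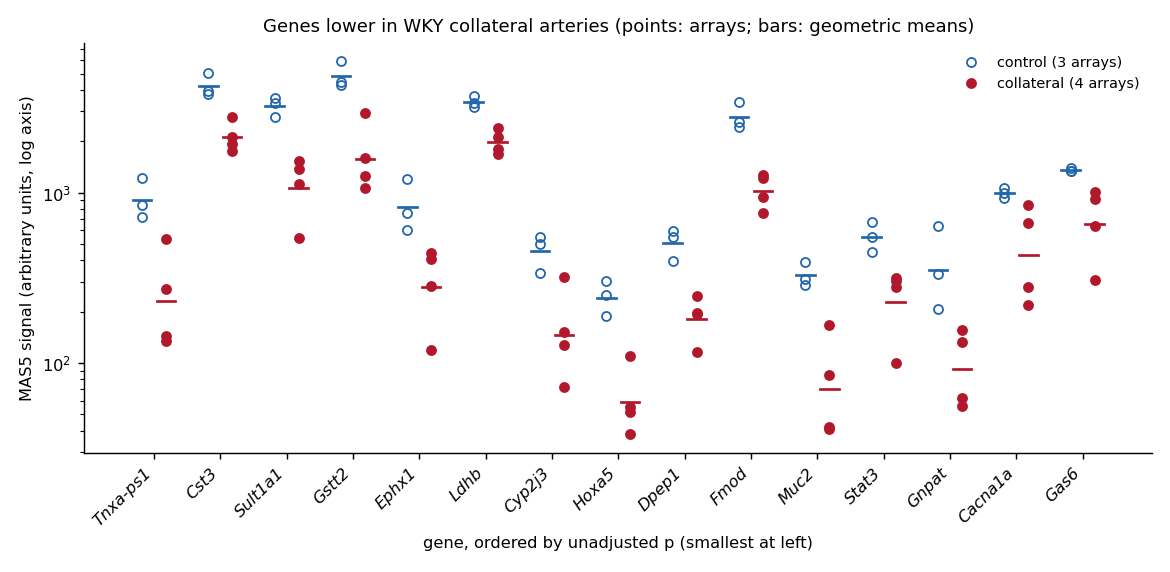
Signals of the 15 genes with the smallest unadjusted p among those lower in WKY collaterals without overlap, on a log axis, with 1 point per array (open blue, 3 controls; filled red, 4 collaterals) and bars at geometric means. Cst3, Sult1a1, Ldhb and Fmod show a clear gap between groups, and Hoxa5, Muc2 and Gnpat have dim collateral signals.

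Cst3 (rc_AI231292_at), cystatin C, which inhibits cathepsins, read 2769, 1764, 2127 and 1932 against 5023, 3945 and 3795. No arrays overlapped, the change was -0.996 ± 0.26, 1.99-fold lower in collaterals, and the other probe set gave -1.11. Of the 10 cathepsins and cystatins tested 9 were below 0, with a median of -0.16, which was -0.0013 without WKY collateral 3. Fmod, fibromodulin, a collagen-binding proteoglycan, had 1225, 1260.2, 943 and 759 against 2587, 3383 and 2431 (-1.43 ± 0.50), but its other probe set stood at 0.03. Mgp, the matrix Gla protein that holds back calcification, gave 52524, 57069, 49276 and 66765 against 72627, 113952 and 118081 without overlap (-0.82 ± 0.32).

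Decorin, Dcn, another collagen-binding proteoglycan, read 54139.5, 43366, 61058 and 55031 against 66905, 69178 and 108082, without overlap (-0.58 ± 0.31), and all 4 of its probe sets were below 0. Laminin beta 2, Lamb2, of the basement membrane, had 5968, 9690.0, 9099 and 6683 against 12457, 14427 and 14179 (-0.83 ± 0.39), though its other probe set stood at 0.05. Elastin, Eln, showed a small difference without overlap, 37069, 36780.1, 37838 and 36476 against 43659.5, 46908 and 49002 (-0.33 ± 0.36). Col3a1 stood at -0.47 ± 0.32, also without overlap, and Col1a1, the main fibrillar collagen, overlapped at -0.20 ± 0.38. Structural matrix genes were thus split, 13 above 0 and 14 below of 27, with 3 higher and 6 lower without overlap (3.82% and 3.48% of all genes). Fibroblast markers, which share Dcn, Fmod and the collagens with that list, were below 0 in 12 of 14, with a median of -0.35 and 4 lower without overlap (3.48% of all genes). The 5 defining fibroblast markers summed to 141627 to 214586 on collateral and 174978 to 277800 on control arrays, all 5 lower in value, and their part in the matrix values was not tested.

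Tnxa-ps1 (U24489_g_at), annotated as a pseudogene related to tenascin X, had 533, 144, 270.1 and 134 against 722, 844 and 1216, without overlap (-1.98 ± 0.47). The brighter probe set stood at -0.12 with the groups overlapping, and a related gene can share the Tnxa-ps1 signal. Gas6, a ligand of the Axl receptor, read 923, 305, 1015 and 639 against 1389, 1332 and 1343, with collateral 2 the lowest (-1.05 ± 0.40). Its brighter probe set stood at -0.29 with the groups overlapping. Dpep1, a membrane dipeptidase, had 197, 247, 194 and 116 against 551, 397 and 598 (-1.48 ± 0.51, and -1.22 on the other probe set). Stat3, a transcription factor of cytokine signalling, gave 304, 279.6, 100 and 315 against 448, 549 and 674. Collateral 3 was far below the other collaterals, and the change was -1.27 ± 0.46. The remaining lower genes, Hoxa5, Muc2 and Gnpat, stood at -2.04 ± 0.70, -2.22 ± 0.77 and -1.93 ± 0.70, with 3, 2 and 1 of the 7 arrays below their own 20th percentile of signal. The brightest probe set of Muc2 stood at 0.50 and another at -0.13, so its probe sets disagree. For Gnpat the brighter probe set stood at -0.28 with the groups overlapping.

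Immediate early genes, whose products are transcription factors and feedback regulators switched on within minutes of a stimulus, were below 0 in 23 of 33 tested, with a median of -0.47. Of the 33, 5 were lower and 1 higher without overlap (3.48% and 3.82% of all genes), while 1 was lower and 2 were higher at an unadjusted p under 0.05 (1.36% and 1.99%). Nr4a1, an orphan nuclear receptor, read 22412, 10426, 12706 and 12159 against 38073, 31518 and 31639, without overlap (-1.29 ± 0.64), and its relatives Nr4a2 (-0.86 ± 0.46) and Nr4a3 (-1.10 ± 0.84) also had no overlap, although the second probe set of Nr4a3 stood at 0.03. Fos, an AP-1 subunit, had 11618, 8189, 15770.4 and 13682 against 35584, 18516 and 17398. Control 1 was much higher than the other controls, which were close to collateral 3 (-0.91 ± 0.45). Jun, the partner of Fos, overlapped, 7057, 1417, 1382 and 850.1 against 14663, 5199 and 3676, with collateral 1 above 2 of the controls (-1.82 ± 0.70). Without WKY control 1 the list median was -0.20.

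Other members of the same list went against it. Fosl1, the AP-1 subunit FRA-1, gave 344, 730.4, 609.7 and 461 in collaterals and 123, 138 and 353 in controls. Collateral 1 was just under control 3, and the change was 1.51 ± 0.60. Crem, a cyclic AMP responsive factor, had 929, 372, 376 and 492 against 236, 207 and 217, without overlap (1.19 ± 0.48), but 2 of its other 3 probe sets were below 0.

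Of 38 potassium and calcium handling genes tested 29 were below 0, with a median of -0.28. Of the 38, 5 were lower without overlap and 0 higher (3.48% and 3.82% of all genes), and 1 had an unadjusted p under 0.05, lower (1.36% of genes were). Without WKY control 3 the median was -0.17, and without WKY control 1 it was -0.45. Cacna1a, the pore of a voltage-gated calcium channel, read 842, 661, 218 and 278 against 1061, 993 and 929, with collaterals 3 and 4 the lowest (-1.21 ± 0.44, and -0.31 on its other probe set). Cacnb2, an auxiliary subunit, had 992, 1014, 1305 and 1016 against 1467, 1640.5 and 2181 (-0.69 ± 0.39). Atp2a2, the calcium pump SERCA2, had no overlap on its brightest probe set (-0.40 ± 0.41), but 2 of the other 3 were above 0. The angiotensin receptor Agtr1a read 1022, 239, 385 and 352 against 1362, 1082 and 648. Collateral 1 was above control 3, so the groups overlapped (-1.21 ± 0.59), and the other probe sets stood at -0.59 and -0.05. Endothelin 1, Edn1, stood at -0.47 ± 0.67.

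**Figure D5:**
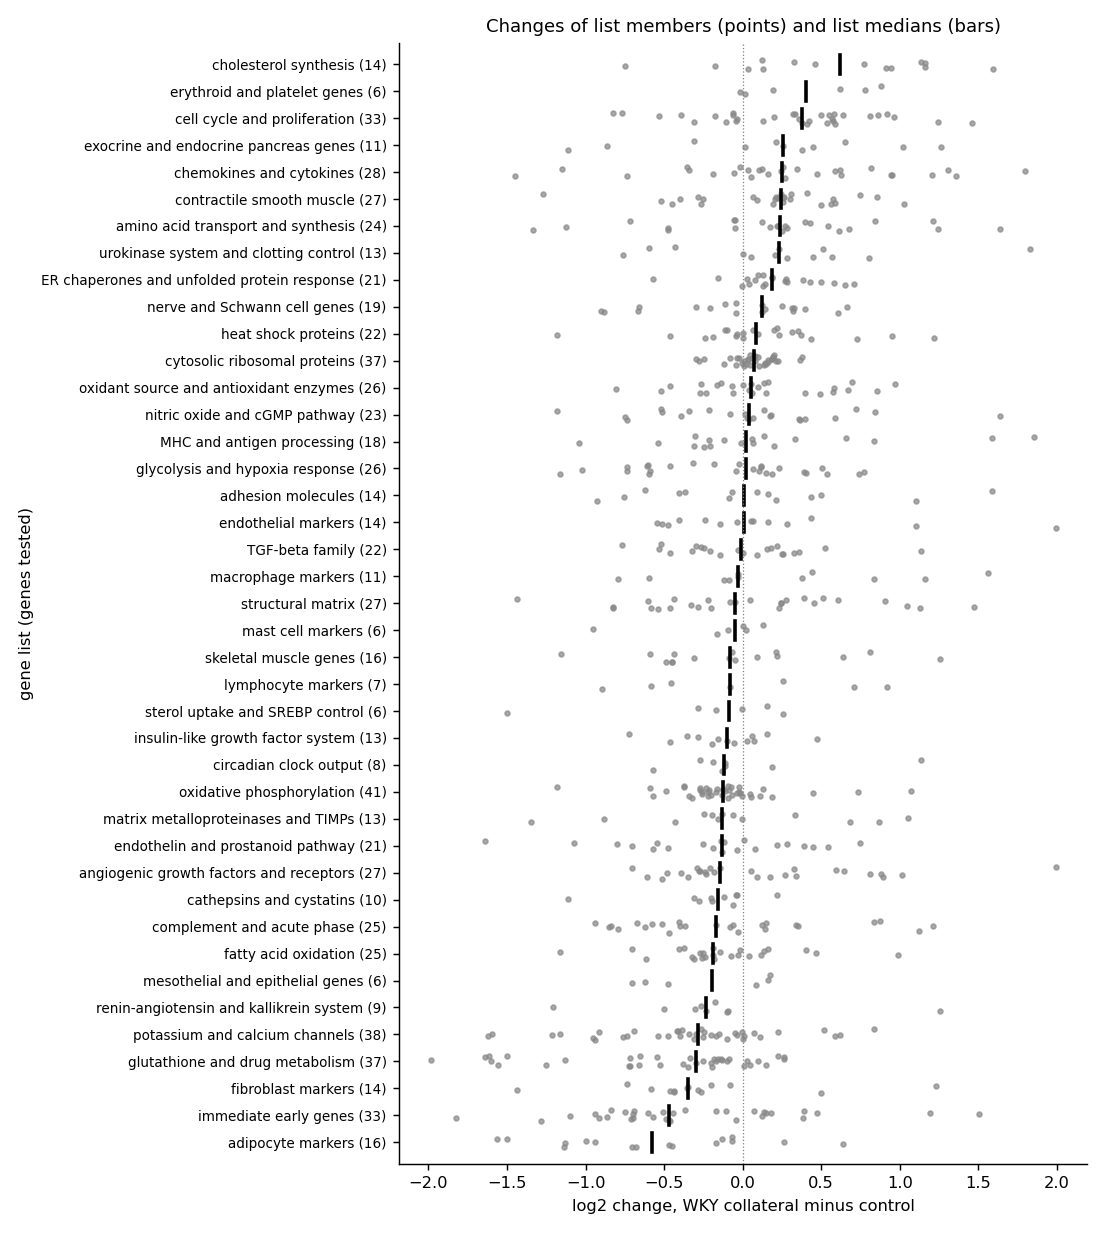
Log2 change, WKY collateral minus control, of each tested gene (points) and the median (bar) for 41 gene lists, ordered by median, with the number of genes tested in brackets. Cholesterol synthesis lies highest at 0.62 and adipocyte markers lowest at -0.58, and the points of every list spread to both sides of the dotted line at 0.

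The same genes were read in SHR, on 8 other arrays. SHR collateral 3, which stood apart, is 1 of the 4 arrays behind every SHR collateral mean, so the SHR values are given with and without it. Of the 15 leading higher genes 10 had the same sign in SHR, with a median of 1.49 in WKY and 0.41 in SHR, and of the 15 leading lower genes 12 had it, with medians of -1.56 and -0.48. Over all tested probe sets 54.0% had the same sign. Without SHR collateral 3, 12 of the higher and 12 of the lower genes had the same sign, with SHR medians of 0.38 and -0.61, beside 58.1% of all probe sets. The leading genes were chosen for their WKY values, which by itself makes their WKY changes large. Their SHR medians and single SHR changes are therefore not read as a weaker response. Esm1 stood at 1.995 ± 0.42 in WKY and 0.85 ± 0.39 in SHR, Plaur at 1.83 ± 0.43 and 0.67 ± 0.40, and Gstt2 at -1.61 ± 0.50 and -1.14 ± 0.46. The SHR values of these 3 were 0.90, 0.32 and -1.12 without SHR collateral 3. Timp1, Col12a1 and Acta1 stood at -0.02 ± 0.24, -0.04 ± 0.41 and -0.08 ± 0.40 in SHR, and at 0.064, 0.35 and 0.38 without that array. Tgfb3 had the opposite sign in SHR, at -0.79 ± 0.44, and -0.33 without that array. The difference between the strains for Tgfb3, SHR change minus WKY change, was -1.92 ± 0.64 (unadjusted p = 0.00759), and -1.46 (unadjusted p = 0.0111) without it.

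That difference was tested for every probe set with limma. None passed (0 of 6512, or 0%, the smallest adjusted p being 0.99969). At an unadjusted p under 0.05 there were 124 (1.9%), and 110 (1.69%) without SHR collateral 3. Of the 30 leading genes, 6 of the higher and 4 of the lower had one, but they were chosen on the WKY arrays that also enter the difference, so their share is not read against that of all probe sets. No difference between WKY and SHR is called for any gene named here. List medians in WKY and SHR were 0.62 and 0.18 for cholesterol synthesis, -0.30 and -0.10 for glutathione and drug metabolism, -0.47 and -0.25 for immediate early genes and -0.35 and -0.34 for fibroblast markers. For contractile genes they were 0.24 and -0.25, and for cytosolic ribosomal proteins, 28 of 37 above 0 in WKY, they were 0.07 and -0.18. Without SHR collateral 3 the SHR medians were 0.26 for cholesterol synthesis, -0.18 for glutathione and drug metabolism, -0.22 for immediate early genes, -0.22 for fibroblast markers and -0.065 for ribosomal proteins. The SHR median of the contractile genes turned to 0.12. These list differences were not tested.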

How the data were processed

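Total RNA was amplified into biotinylated cRNA from a small input, per the labels' protocols. The authors deposited a scaled signal value for each probe set, and the submitters' processing notes name GCOS and MAS5 with no version. Such scaling to a common array mean hides a shift of all genes. Signals had a floor of 1 (12 values were below it) and were taken to log2. The 59 control probe sets were left out, and a probe set was tested if it reached its array's 40th percentile on 3 or more arrays (6512 of 8740). Changes were fitted over 15 arrays as 4 group means (limma 3.58.1, R 4.3.3), letting the variance follow mean signal, with Benjamini-Hochberg adjustment over all tested probe sets at 0.05 (11 residual and 7.19 prior degrees of freedom); the fit was checked on simulated data. For arrays, their number limits the precision.

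Symbols came from the platform annotation (7006 probe sets with 1 symbol, 308 with several, 1426 with none, the last 2 kinds unnamed). Lists used 1 probe set per gene, that with the highest mean signal (3825 genes), and were described by counts and medians, with no list test. Genes were named by rule: up to 15 per direction with the smallest p among probe sets without overlap, up to 4 per list with the smallest p, the 5 per direction with the largest change without overlap at above-median signal, and 30 fixed genes. The text gives part of these, with the probe set of the first part of the rule where a gene has several. Some further list members (such as Eln, Col3a1, Nr4a3, Atp2a2 and Fn1) were picked once values were known. The members and lists were chosen with earlier results of these data known. Promoters were taken from RefSeq on GRCr8 and motifs searched on both strands. Alternatives were quantile normalization, a constant of 68.5 added ahead of log2, a 60th percentile filter or none, only WKY arrays, array weights, no variance trend, a replicate block, SHR collateral 3 left out and each WKY array left out, with WKY arrays alone after quantile normalization added after seeing the data.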

Additional observations from a re-analysis of the deposited data

Results flagged for a closer look

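Among 134 values examined over the 4 collateral arrays (93 genes and 41 list levels), 5 had an array far from the others by Dixon's criterion. Chance flags about 1 in 20 groups. Plaur was 784 on collateral 3 against 1499 to 1647 on the other collaterals. Cdk1 was 53.6 on collateral 3 against 296 to 401. Stat3 was 99.97 on collateral 3 against 279.6 to 315. Fdft1, squalene synthase, was 144 on collateral 2 against 409.7 to 484, and its log2 change of -0.75 was -0.35 without that array. The median log2 level of the cytosolic ribosomal protein genes was 13.95 on collateral 1 against 14.21 to 14.24 on the others, and 13.86 to 13.99 on the controls.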

How the results depend on the processing

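No probe set reached an adjusted p under 0.05 under any alternative run, in WKY or for the difference between strains. The count at an unadjusted p under 0.05 (206, with 114 higher and 92 lower) was 407 (205 and 202) with only WKY arrays, 432 (219 and 213) with these after quantile normalization, 461 (245 and 216) with array weights and 321 (181 and 140) without SHR collateral 3. With each WKY array left out it was 146 to 247 (78 to 143 and 54 to 112). The count without overlap was 586 to 1112 (305 to 526 and 281 to 586), with fewer arrays to separate. The replicate numbers were not taken as pairs, and the labels do not say whether they mark pairs. Deviations of same-numbered arrays correlated at 0.31, 0.02 and 0.17. Controls 1 and 3 each correlated best with the collateral of their own number, and control 2 with collateral 3 (0.11). These values do not settle whether the arrays are paired. With the replicate block in limma 193 probe sets had an unadjusted p under 0.05 (smallest adjusted p 0.999). The WKY changes of that fit equal those without collateral 4, which has no partner.

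Of 93 named genes, 88 kept their sign throughout. Dhcr7 was -0.0335 and Vegfa 0.018 with array weights. With arrays left out, Dhcr7 ranged from -0.16 to 0.23, Vegfa from -0.50 to 0.031, Acta2 from -0.19 to 0.31, Acat2 from -0.052 to 0.28 and Pecam1 from -0.031 to 0.70. Leaving out WKY control 1 gave -0.58 for Fos, -0.42 for Cfd and -0.25 for Edn1. Leaving out WKY control 2 gave 0.49 for Cdk1. Leaving out WKY control 3 gave 1.09 for Slc7a1, 0.53 for Mcm6, -0.36 for Dcn, -0.33 for Nos3 and -0.045 for Myh11. Leaving out WKY collateral 2 gave -0.69 for Gas6 and -0.35 for Fdft1, and leaving out WKY collateral 4 gave 1.02 for Lyz2, -0.72 for Fabp4 and -0.48 for Lpl. The complement list median of -0.17 was -0.37 with a 60th percentile filter and -0.34 to -0.10 with arrays left out. Renin-angiotensin genes (-0.23) had -0.0079 with the replicate block and -0.55 to -0.0079 with arrays left out. The endothelin list ranged from -0.29 to 0.042, cell cycle from 0.17 to 0.40 and glutathione and drug metabolism from -0.39 to -0.17.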

Other observations

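Genes of protein folding in the endoplasmic reticulum were above 0 in 18 of 21 tested, with a median of 0.18, though 0 had an unadjusted p under 0.05 with limma. Of the 21, 1 was higher without overlap (3.82% of all genes were), Ssr4, a subunit of the translocon complex, at 0.50 ± 0.32. The chaperone Hsp90b1 stood at 0.58 ± 0.33, and Ppp1r15a, which restarts translation after stress, at -0.57 ± 0.43. Of 18 genes of antigen presentation tested, 9 were above 0 and 9 below, with a median of 0.02. RT1-DMb, which loads peptides onto class II molecules, read 418, 447, 459 and 795 in collaterals and 132, 124 and 298 in controls, without overlap (1.59 ± 0.64), while the class I gene RT1-A3 stood at -1.04 ± 0.63 and was below the 20th percentile of signal on 4 of the 7 arrays.

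In nucleotide synthesis, Prps2, which makes phosphoribosyl pyrophosphate, read 598, 642, 661 and 534 against 155, 425 and 89.6, without overlap (1.75 ± 0.65), and Atic, of the purine pathway, 369, 479.5, 452 and 380.4 against 281, 55.3 and 200.4 (1.51 ± 0.50), with 0.07 on its other probe set and 0.81 without WKY control 2 on the first. Of the mitochondrial antioxidant enzymes, Txnrd2 was higher without overlap at 0.97 ± 0.37. In fatty acid oxidation 18 of 25 genes were below 0, with a median of -0.19, and Ech1 and Decr1, auxiliary enzymes for unsaturated fatty acids, were lower without overlap at -1.16 ± 0.59 and -0.40 ± 0.32.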
